A study of Mus musculus with 12 samples.

Results

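Transcripts of 10 extracellular matrix genes were followed through the adipogenic differentiation of 3T3-L1, mouse fibroblasts that can form fat cells in culture, with and without knockdown of Fto. The genes were Prg4, the hyaluronan synthases Has1, Has2 and Has3, the hyaluronan receptor Cd44, the large proteoglycan Vcan and the small leucine-rich proteoglycans Lum, Dcn, Bgn and Fmod. Each symbol matched 1 row of the table of 55487 genes, and all 10 were among the 15968 genes that reached the test. Prg4 was chosen by a measured value, its rise in knockdown cells at the differentiation stage. That rise, a log2 fold change of 6.18, was the highest of the genes tested, and the next was 5.83 for Saa3. Prg4 is therefore described without a test in every comparison whose group means used libraries of that stage. Its other tests still take their spread from all libraries, those of that stage included. The other 9 genes were chosen by family, with earlier results of these data known.

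Proteoglycans are proteins that carry sulphated sugar chains, and hyaluronan is a long sugar chain made without a protein core. Hyaluronan is drawn out through the plasma membrane by its synthases, is held at the cell surface by Cd44 and binds versican, the product of Vcan, in loose, hydrated matrix. The small leucine-rich proteoglycans bind collagen fibrils and shape their growth. Lubricin, the product of Prg4, is a mucin-like glycoprotein best known as the boundary lubricant of joint surfaces, and it can bind Cd44. When preadipocytes become adipocytes, the fibroblastic matrix around them is rebuilt.

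The knockdown line expressed a short hairpin RNA to Fto (shFto, written shFTO in the labels) and its control a scrambled one (shScram), and both were made with lentivirus and puromycin selection before RNA was sequenced. Fto encodes a demethylase of N6-methyladenosine in RNA. Both lines were sampled as preadipocytes (Pre), at mitotic clonal expansion (MCE) after the MDI induction medium, and at the differentiation stage (Diff), with 2 libraries in each of 6 groups, 12 in all. MDI stands for the phosphodiesterase inhibitor IBMX, dexamethasone and insulin, and insulin was supplied afterwards. The labels do not name the hairpin sequence used, and each line was a selected pool with no statement of clones. Nothing in the labels says whether replicates were separate cultures, so the p-values measure the spread between libraries, which may be technical. Values are TPM, the relative share of each gene's transcripts after scaling for transcript length, and TPM keeps no sequencing depth.

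Fto stood at 52.7 to 73.5 TPM in the 6 shScram libraries and at 5.51 to 7.47 TPM in the 6 shFto libraries, a mean log2 fold change of -3.09 (p = 0.00926 by an exact permutation of lines inside each stage, two-sided, the smallest p that its 216 arrangements can give). For shScram Diff replicate 1 the treatment entry names the knockdown while the title names shScram. The title was followed, and Fto was 73.5 TPM in that library. The libraries of shScram Pre stood apart from each other, with a correlation of 0.939 between replicates across genes against 0.990 to 0.993 in the other 5 groups, so the main results that change are also given without one or the other of them. Leaving out either one left Diff and MCE values as they were but lowered many of their adjusted p, and the share of all genes called rose with it. The samples are labelled as fibroblasts, and all 15 fibroblast markers were at 1 TPM or more in at least 1 library. The adipocyte markers summed to between 1940 and 1973 TPM in shScram Diff and between 544 and 586 TPM in shFto Diff.

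Prg4 was almost unexpressed in control preadipocytes and was high in shFto cells after induction. In shScram cells it was 0.206 and 0.104 TPM at Pre, 11.9 and 11.4 TPM at MCE, and 1.40 and 1.06 TPM at Diff. In shFto cells it was 1.17 and 1.24 TPM at Pre, 225 and 230 TPM at MCE, and 157 and 164 TPM at Diff. The shFto libraries lay above the shScram libraries at each stage with no overlap. The libraries of a group were close together, apart from those of shScram Pre, where both values were far below 1 TPM. At MCE, a stage that the choice of Prg4 did not use, the mean level was 19.4-fold higher in shFto cells, with a log2 fold change of 4.17 ± 0.13 (SE, n = 2 per group, limma, adjusted p = 1.39e-06). At Pre, with every level near 1 TPM or below, the log2 fold change was 0.94 ± 0.13 (SE, adjusted p = 0.00208). At Diff the group means differed 130-fold, the value by which the gene was picked. These are bulk samples, in which fewer cells of a type and less RNA per cell cannot be told apart.

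The rise of Prg4 from Pre to MCE occurred in both lines. Its log2 fold change between these stages was 3.46 ± 0.13 (SE, adjusted p = 5.82e-07) in shScram cells and 6.69 ± 0.13 (SE, adjusted p = 4.69e-08) in shFto cells. The test of the difference between these rises, which is the knockdown effect at MCE minus that at Pre, gave 3.23 ± 0.19 on the log2 scale (SE, adjusted p = 0.000182). The size depends on the pseudocount, since the Pre levels were so low, and it was 1.88 with a pseudocount of 0.1. The group means differed 7.79-fold between lines at Pre and 19.4-fold at MCE. From MCE to Diff, the level in shScram cells fell to near 1 TPM, still above its Pre level, while the shFto libraries kept most of their level. The last statement is a description of levels and carries no test.

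Prg4 lies on chromosome 1 at 150449412 to 150466165 (GRCm38, minus strand), and its end runs into Tpr on the opposite strand over 204 of its 4280 exonic bases, 4.77%. Whether strand was used in counting is not given in the sources used here. Tpr, a nuclear pore gene, was at 56.7 to 139 TPM. Its log2 fold changes between lines were -0.67 (adjusted p = 0.0752), 0.20 (adjusted p = 0.672) and -0.01 (adjusted p = 0.991) at Pre, MCE and Diff. Prg4 was at its lowest, 0.104 to 0.206 TPM, in the shScram Pre libraries, where Tpr was at 139 and 71.9 TPM.

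Markers of other cell types were checked in the same libraries. Of 14 synovial lining and chondrocyte markers, 6 reached 1 TPM in any library, and their sum was 37.0 to 39.0 TPM in shFto MCE against 63.1 to 63.9 TPM in shScram MCE. Most of that sum was Sox9, at 29.6 and 32.1 TPM in shFto MCE and 54.7 and 55.2 TPM in shScram MCE. Col11a2 and Matn4 went the other way at Diff. Col11a2 was at 20.5 and 19.5 TPM in shFto against 7.78 and 7.22 TPM in shScram, and Matn4 at 7.07 and 7.06 TPM against 2.67 and 2.59 TPM. Of the 6 tested, 2 were called higher and 1 lower at Pre, 0 and 2 at MCE, and 1 and 2 at Diff. Of all genes tested, 15.9% and 12.3%, 10.5% and 7.26%, and 11.9% and 9.31% were. Col2a1, the cartilage collagen, did not pass 0.235 TPM in any library. Of 12 macrophage markers, 4 reached 1 TPM and 4 (Adgre1, C1qa, C1qb and C1qc) were at 0 in all libraries. The macrophage sum was nonetheless higher in shFto cells, 49.8 to 50.4 TPM against 6.75 to 7.13 TPM at MCE, and nearly all of it was Cd14, a co-receptor for lipopolysaccharide, at 48.4 and 47.6 TPM in shFto MCE. Smooth muscle and myofibroblast markers also moved with the line, with sums of 195 to 224 TPM in shFto MCE and 14.4 to 15.4 TPM in shScram MCE, and 6 of the 8 reached 1 TPM. Of 10 endothelial markers, 1 reached 1 TPM, and 2 were at 0 throughout. The part of these genes in the levels of Prg4 was not tested.

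**Figure D1:**
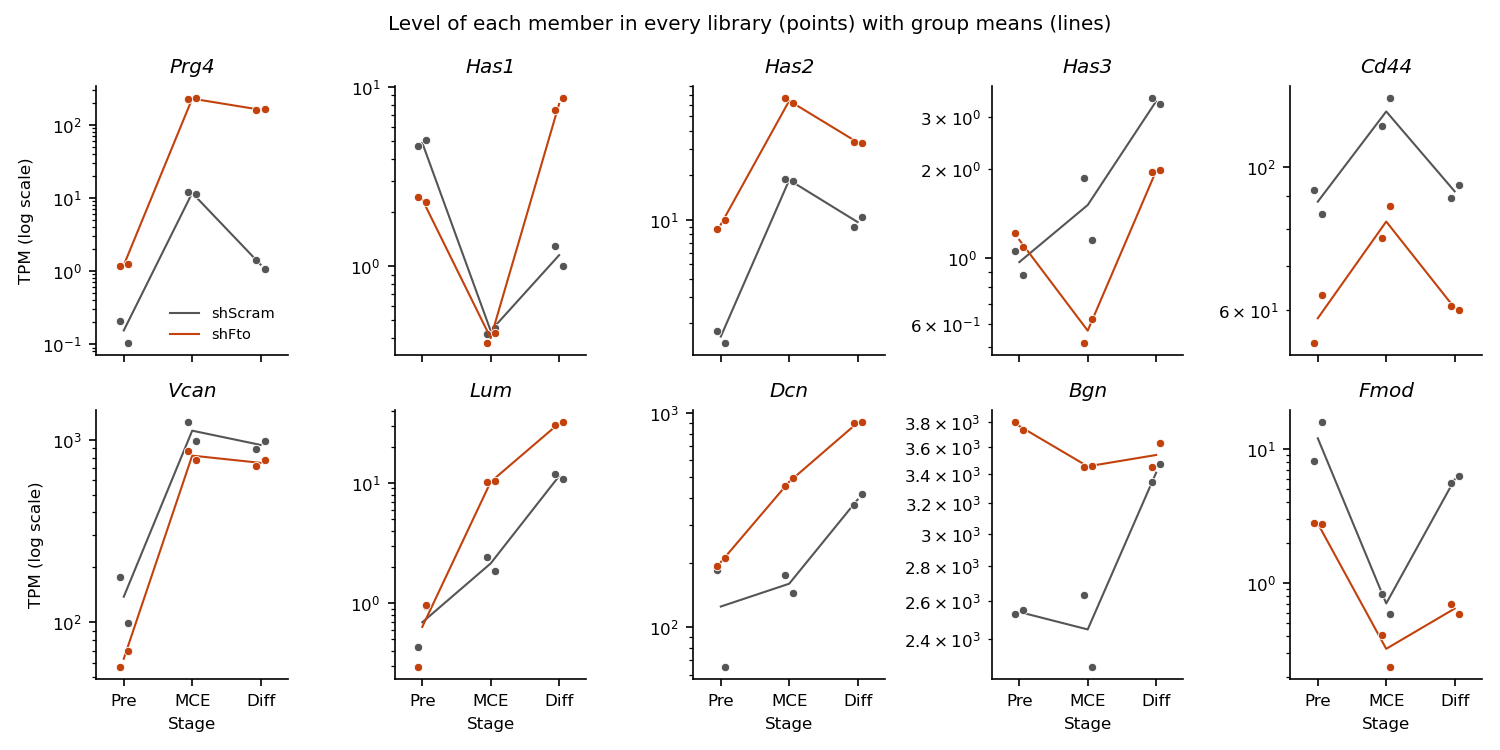
TPM of each gene in every library on a log scale, against stage (Pre, MCE, Diff), with points for the 2 libraries of a group and lines through group means, grey for shScram and orange for shFto. Prg4 reached 225 to 230 TPM in shFto MCE against 11.4 to 11.9 TPM in shScram MCE, and the 2 shScram Pre libraries differed widely for Dcn, at 184 and 65.3 TPM.

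The hyaluronan synthases differed from one another in both their levels and their direction. Has2, the synthase with the highest level in 5 of the 6 groups, was higher in shFto cells at each stage. Its level in shScram cells was 1.78 and 1.47 TPM at Pre, 18.8 and 18.4 TPM at MCE, and 8.91 and 10.4 TPM at Diff. In shFto cells it was 8.62 and 9.98 TPM at Pre, 66.4 and 61.3 TPM at MCE, and 33.5 and 33.3 TPM at Diff. The groups of the 2 lines did not overlap at any stage. The log2 fold changes of shFto against shScram were 1.97 ± 0.14 (SE, adjusted p = 6.96e-05) at Pre, 1.72 ± 0.14 (SE, adjusted p = 7.72e-05) at MCE and 1.69 ± 0.14 (SE, adjusted p = 6e-05) at Diff. Has2 lies on chromosome 15 at 56665627 to 56694539 (minus strand). Neither difference between consecutive stages passed the test. The knockdown effect at MCE minus that at Pre was -0.25 (95% interval -0.69 to 0.19), and that at Diff minus that at MCE was -0.03 (95% interval -0.47 to 0.41).

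Has1, another isozyme, on chromosome 17 at 17843323 to 17855205 (minus strand), followed a course of its own. In shScram cells it was 4.68 and 5.11 TPM at Pre, 0.418 and 0.455 TPM at MCE, and 1.30 and 1.01 TPM at Diff. In shFto cells it was 2.44 and 2.29 TPM at Pre, 0.373 and 0.423 TPM at MCE, and 7.46 and 8.68 TPM at Diff. The shFto libraries were thus the lower ones at Pre, overlapped those of shScram at MCE and were the higher ones at Diff. The log2 fold change was -0.81 ± 0.15 (SE, adjusted p = 0.00728) at Pre and -0.04 (95% interval -0.38 to 0.30, adjusted p = 0.906) at MCE. At Diff it was 2.07 ± 0.15 (SE, adjusted p = 3.44e-05). The knockdown effect at Diff minus that at MCE was 2.11 ± 0.21 (SE, adjusted p = 0.00246), while that at MCE minus that at Pre was 0.77 ± 0.21 (SE, adjusted p = 0.08) and did not pass.

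Has3, on chromosome 8 at 106870242 to 106884566 (plus strand), stayed below 4 TPM. Its levels were 1.06 and 0.879 TPM at Pre, 1.87 and 1.15 TPM at MCE and 3.48 and 3.32 TPM at Diff in shScram cells, and 1.22 and 1.09, 0.515 and 0.621, and 1.96 and 1.99 TPM at the same stages in shFto cells. The shFto libraries were lower without overlap at MCE and Diff. The log2 fold changes there were -0.67 ± 0.17 (SE, adjusted p = 0.029) and -0.56 ± 0.17 (SE, adjusted p = 0.0482), and at Pre the value was 0.13 (95% interval -0.26 to 0.52). At MCE the call held in 13 of 19 alternative settings, with values from -1.24 to -0.46, and was lost without the filter (adjusted p = 0.0769) and with quantile normalization (adjusted p = 0.0593), among others. At Diff it held in 7 of 19, and without shScram Diff replicate 1 the adjusted p was 0.177. Has3 shares 352 of its 6380 exonic bases (5.52%) with Chtf8 on the opposite strand, which was at 31.1 to 122 TPM, so its low level is uncertain. Has2 shares 182 of 4237 exonic bases (4.3%) with the antisense transcript Has2os, which was at 0.705 to 3.98 TPM, below Has2 at MCE and Diff in both lines.

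Summed over the isozymes, synthase transcripts were 7.45 to 7.53 TPM in shScram Pre, 20.0 to 21.1 TPM in shScram MCE and 13.7 to 14.7 TPM in shScram Diff. The sums in shFto cells were 12.3 to 13.4 TPM, 62.3 to 67.3 TPM and 42.9 to 44.0 TPM. Has1 made up 62.2% and 68.5% of the sum in the shScram Pre libraries, but 19.9% and 17.1% in shFto Pre, where Has2 made up 70.2% and 74.7%. At MCE the share of Has2 was 89.2% and 92.0% in shScram and 98.7% and 98.3% in shFto. At Diff the remainder differed in kind, with Has3 at 25.4% and 22.5% and Has1 at 9.52% and 6.83% in shScram, and Has3 at 4.57% and 4.52% and Has1 at 17.4% and 19.8% in shFto. Shares have no interval here because TPM keeps no counts.

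**Figure D2:**
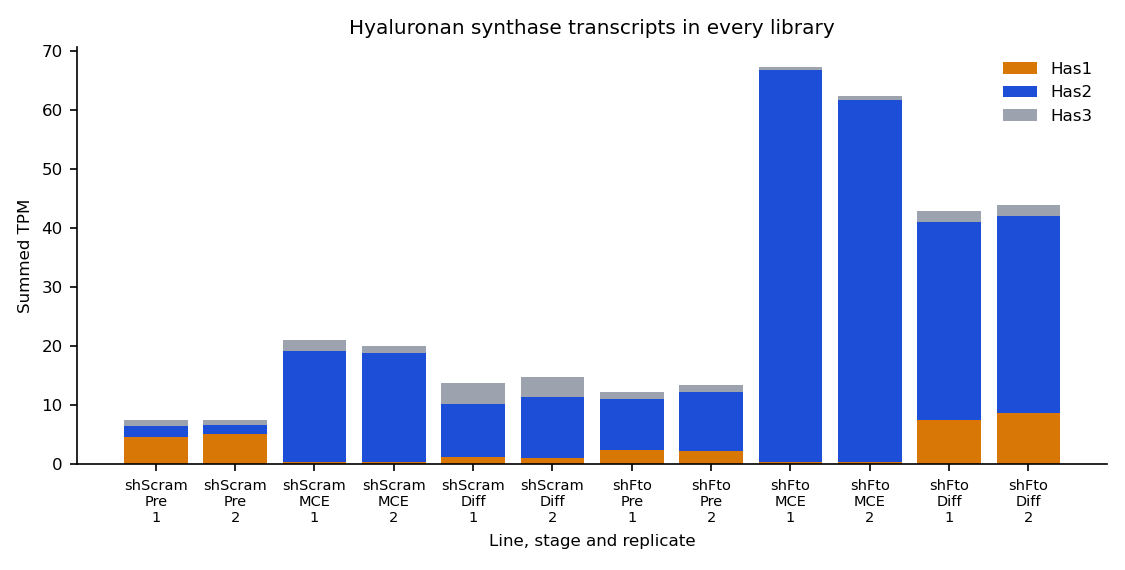
Stacked bars of the TPM of Has1, Has2 and Has3 in each of the 12 libraries, labelled by line, stage and replicate, with the axis starting at 0. The sum is highest in shFto MCE, at 62.3 and 67.3 TPM, and Has1 is the larger part only in the shScram Pre bars.

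Cd44, the main receptor for hyaluronan, on chromosome 2 at 102811141 to 102901665 (minus strand), was lower in shFto cells at each stage. In shScram cells it was 92.1 and 84.5 TPM at Pre, 116 and 128 TPM at MCE, and 89.4 and 93.8 TPM at Diff. With the Fto hairpin it was 53.2 and 63.1 TPM at Pre, 77.6 and 86.8 TPM at MCE, and 60.7 and 60.0 TPM at Diff. Each shFto library was below each shScram library of its stage, and both lines were highest at MCE. The log2 fold changes were -0.60 ± 0.13 (SE, adjusted p = 0.0113), -0.56 ± 0.13 (SE, adjusted p = 0.0149) and -0.59 ± 0.13 (SE, adjusted p = 0.0101) in stage order. These calls held in 18, 16 and 17 of 20 alternative settings. At MCE the call was lost whenever an MCE library was left out. Values over the settings were -0.73 to -0.48 at Pre, -0.66 to -0.48 at MCE and -0.68 to -0.56 at Diff. The knockdown effect at MCE minus that at Pre was 0.03 (95% interval -0.37 to 0.44).

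Versican, a large chondroitin sulphate proteoglycan that binds hyaluronan, rose steeply after induction. Vcan lies on chromosome 13 at 89655312 to 89742509 (minus strand). It was 177 and 99.2 TPM in shScram Pre, 1254 and 991 TPM in shScram MCE, and 893 and 983 TPM in shScram Diff. The shFto levels were 57.0 and 69.3 TPM at Pre, 866 and 773 TPM at MCE, and 716 and 780 TPM at Diff. The shFto libraries were lower at each stage without overlap, but the lines passed the test for a difference at Pre alone, where the log2 fold change was -1.07 ± 0.25 (SE, adjusted p = 0.0168). It was -0.65 without shScram Pre replicate 1, -0.93 without shFto Pre replicate 1 and -1.20 without shFto Pre replicate 2. This call held in 17 of 20 alternative settings and was lost without either shFto Pre library. At MCE the value was -0.45 (95% interval -1.01 to 0.12, adjusted p = 0.281), and at Diff it was -0.33 (95% interval -0.89 to 0.24, adjusted p = 0.409). Without shScram Pre replicate 1 the value at MCE passed the test, with an unchanged fold change and an adjusted p of 0.0167. The knockdown effect at MCE minus that at Pre was 0.62 (95% interval -0.18 to 1.42) and did not pass. It was 0.20 (adjusted p = 0.543) without shScram Pre replicate 1 and 1.03 (adjusted p = 0.00162) without replicate 2 of that group, so its size rests on which of these libraries is used.

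Among the small leucine-rich proteoglycans, Bgn had by far the highest level and varied least. Bgn, biglycan, on chromosome X at 73483602 to 73495933 (plus strand), was 2532 and 2553 TPM at Pre, 2635 and 2264 TPM at MCE, and 3347 and 3476 TPM at Diff in shScram cells. In shFto cells it was 3797 and 3731 TPM at Pre, 3454 and 3461 TPM at MCE, and 3450 and 3633 TPM at Diff. The lines were separate at Pre and MCE and overlapped at Diff. The log2 fold change was 0.57 ± 0.14 (SE, adjusted p = 0.0198) at Pre and 0.50 ± 0.14 (SE, adjusted p = 0.0376) at MCE, and at Diff it was 0.05 (95% interval -0.26 to 0.37). At Pre the call held in 16 of 20 settings, with values from 0.49 to 0.62. It was lost without the filter (adjusted p = 0.0846) and without either shFto Pre library. The MCE value lost the call with median-ratio scaling, at 0.43 (adjusted p = 0.0768), and without shScram Diff replicate 1, with an adjusted p of 0.0679, and it held in 7 of 20 settings. As for the difference between stages, the effect at Diff minus that at MCE was -0.45 (adjusted p = 0.326), and its adjusted p without shScram Pre replicate 1 was 0.0435.

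Dcn, decorin, the closest relative of biglycan, on chromosome 10 at 97479609 to 97518143 (plus strand), had a higher level at each later stage in shFto cells. It was 192 and 210 TPM at Pre, 458 and 496 TPM at MCE, and 894 and 908 TPM at Diff in that line. In shScram cells it was 184 and 65.3 TPM at Pre, 175 and 144 TPM at MCE, and 371 and 417 TPM at Diff. Each shFto library was above each shScram library of its stage, with the smallest gap at Pre, where the shScram libraries were far apart. The log2 fold change was 0.87 ± 0.38 (SE, adjusted p = 0.108) at Pre, 1.58 ± 0.38 (SE, adjusted p = 0.02) at MCE and 1.19 ± 0.38 (SE, adjusted p = 0.0528) at Diff. At Pre the value was 1.61 (adjusted p = 1.97e-05) without shScram Pre replicate 1 and 0.12 without replicate 2, and at Diff the adjusted p was 7.75e-06 and 7.88e-06 without the one and the other. At MCE the call was lost without the filter (adjusted p = 0.0646) and without any 1 of the 4 MCE libraries (adjusted p = 0.0717 to 0.123).

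Lum, lumican, on chromosome 10 at 97565128 to 97572703 (plus strand), was almost off in preadipocytes of both lines and rose with each stage. It was 0.432 and 0.953 TPM at Pre, 2.42 and 1.87 TPM at MCE, and 11.99 and 10.9 TPM at Diff in shScram cells, and 0.295 and 0.973, 10.1 and 10.3, and 30.6 and 32.2 TPM at the same stages in shFto cells. The lines overlapped at Pre and were separate afterwards, with shFto higher. The log2 fold change was -0.07 (95% interval -0.59 to 0.46, adjusted p = 0.845) at Pre, 1.84 ± 0.23 (SE, adjusted p = 0.000858) at MCE and 1.39 ± 0.23 (SE, adjusted p = 0.00306) at Diff. The knockdown effect at MCE minus that at Pre was 1.91 ± 0.32 (SE, adjusted p = 0.0141), which passed, and that at Diff minus that at MCE was -0.46 (95% interval -1.19 to 0.28).

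Fmod, fibromodulin, on chromosome 1 at 134037254 to 134048277 (plus strand), was the member of this group that was lower in shFto cells. It was 8.09 and 15.9 TPM at Pre, 0.820 and 0.587 TPM at MCE, and 5.59 and 6.22 TPM at Diff in shScram cells. In shFto cells it was 2.78 and 2.76 TPM at Pre, 0.409 and 0.237 TPM at MCE, and 0.702 and 0.585 TPM at Diff. At no stage did a library of one line enter the range of the other, and both lines were below 1 TPM at MCE. The log2 fold change was -1.71 ± 0.26 (SE, adjusted p = 0.003) at Pre, -0.36 (95% interval -0.96 to 0.23, adjusted p = 0.409) at MCE and -2.07 ± 0.26 (SE, adjusted p = 0.000717) at Diff. The knockdown effect at Diff minus that at MCE was -1.71 ± 0.37 (SE, adjusted p = 0.051) and did not pass, although it passed with median-ratio scaling, at -1.62 (adjusted p = 0.0354), and without shScram Pre replicate 1 (adjusted p = 0.00117) or replicate 2 (adjusted p = 0.00121). By summed TPM over these 4 genes, Bgn made up 88.9% to 96.9% in shScram libraries. In shFto Diff its share was 78.9% and 79.4%, with Dcn at 20.4% and 19.9%.

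Counted over the gene set, the knockdown comparison at Pre called 7 of 10 genes at an adjusted p under 0.05. The 3 higher were Prg4, Has2 and Bgn, against 15.9% of all genes tested, and the 4 lower were Has1, Cd44, Vcan and Fmod, against 12.3%. At MCE, 5 of 10 were higher (Prg4, Has2, Lum, Dcn and Bgn), against 10.5% of all genes, and 2 were lower (Has3 and Cd44), against 7.26%. At Diff, 3 of the 9 genes other than Prg4 were higher (Has1, Has2 and Lum), against 11.9%, and 3 were lower (Has3, Cd44 and Fmod), against 9.31%. Nothing is read from these counts. The gene set was built around the Diff comparison, with earlier results of these data known, and the Pre and MCE counts include Prg4. Median log2 fold changes of the set were 0.03, 0.23 and 0.05 at Pre, MCE and Diff, beside 0.08, 0.05 and 0.03 over all genes tested, so the set as a whole had no common direction. Without shScram Pre replicate 1 the counts in either direction were 8, 8 and 7, where 29.0%, 41.0% and 45.7% of all genes were called. Without shScram Diff replicate 1 they were 7, 6 and 5, where 20.9%, 14.5% and 11.2% were, and a fit of the Pre libraries alone called 0 of the 10 at Pre.

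**Figure D3:**
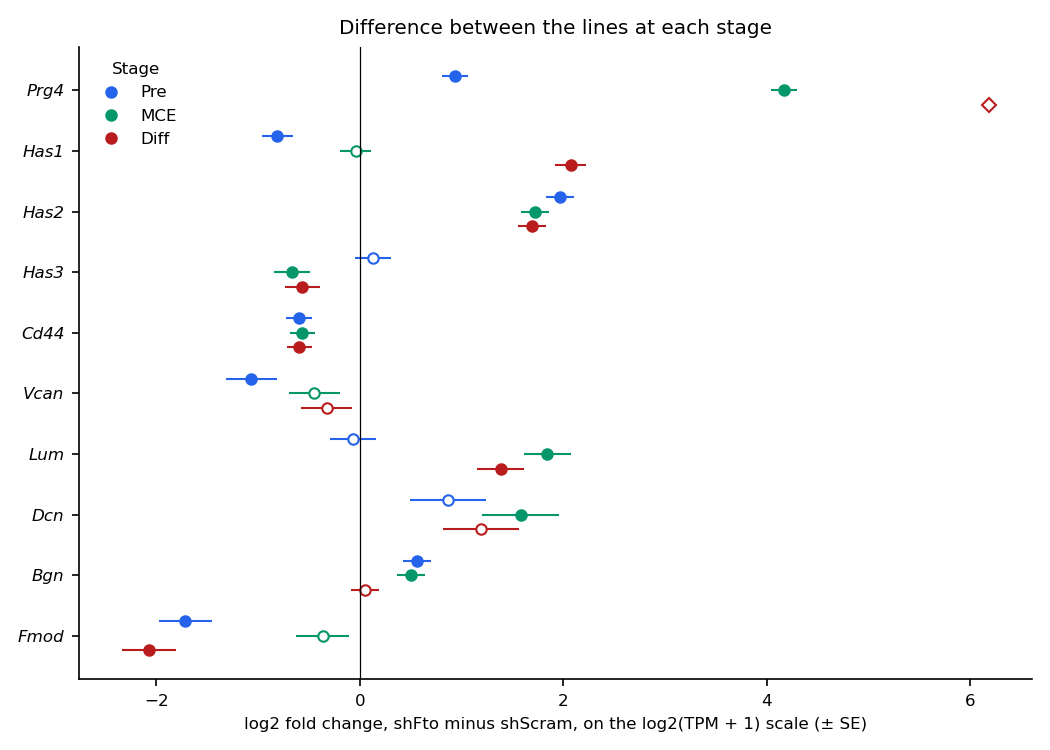
Log2 fold change of each gene, shFto minus shScram on the log2(TPM + 1) scale, with bars of 1 SE, in blue for Pre, green for MCE and red for Diff. Filled circles have an adjusted p under 0.05, open circles do not, and the diamond for Prg4 at Diff (6.18) is the value that chose the gene and has no test. Has2 lies between 1.69 and 1.97 at the 3 stages, and Has1 moves from -0.81 to 2.07.

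The course from stage to stage is given next within each line. TPM is relative to all transcripts, and over all genes tested the median log2 change was -0.17 from Pre to MCE and 0.23 from MCE to Diff in shScram cells, and -0.18 and 0.17 in shFto cells. With median-ratio scaling these medians lay between 0.00 and 0.01 in size. From Pre to MCE, 5 of 10 genes rose in shScram cells (Prg4, Has2, Cd44, Vcan and Lum), against 12.2% of all genes, and Has1 and Fmod fell, against 26.9%. In shFto cells the same comparison raised these 5 and Dcn, against 8.8% of all genes, and lowered Has1 and Fmod, against 19.9%. For Dcn the log2 fold change was 1.24 (adjusted p = 0.0358) in shFto cells, a call that held in 9 of 20 settings, and 0.53 in shScram cells. The latter was 1.27 (adjusted p = 1.83e-05) without shScram Pre replicate 1 and -0.21 (adjusted p = 0.144) without replicate 2, and the difference between the lines in this step, 0.71 (adjusted p = 0.42), was -0.03 and 1.46 (adjusted p = 3.53e-05) without the one and the other. For Vcan the log2 fold changes were 3.06 ± 0.25 (SE, adjusted p = 3.94e-05) in shScram and 3.68 ± 0.25 (SE, adjusted p = 1.48e-05) in shFto. Has2 was at 2.90 ± 0.14 (SE, adjusted p = 1.67e-06) and 2.66 ± 0.14 (SE, adjusted p = 3.66e-06), and Lum reached 2.81 ± 0.23 in shFto cells (SE, adjusted p = 4.16e-05). These sizes give no order among the genes, because the scale compresses the change of a gene that starts near 1 TPM. By the ratio of mean TPM, Has2 rose 11.4-fold and Vcan 8.13-fold in shScram cells. In shFto cells the order was the other way, with Has2 at 6.9-fold and Vcan at 12.98-fold.

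Has1 and Fmod were the genes called lower in both lines as the cells entered clonal expansion. Has3 did not pass in this step, at -0.46 (adjusted p = 0.0807) in shFto and 0.34 (adjusted p = 0.151) in shScram. For Has1 the log2 fold change was -2.04 ± 0.15 (SE, adjusted p = 2.28e-05) in shScram and -1.27 ± 0.15 (SE, adjusted p = 0.000362) in shFto. For Fmod it was -2.87 ± 0.26 (SE, adjusted p = 7.27e-05) in shScram and -1.52 ± 0.26 (SE, adjusted p = 0.00258) in shFto. Both calls kept their direction and their significance under every alternative setting run. The difference between the lines in the fall of Fmod was 1.35 ± 0.37 (SE, adjusted p = 0.0745) and did not pass. Without shScram Pre replicate 1 it was 1.80 and without replicate 2 it was 0.90, so its size rests on which of these libraries is used. It passed in 4 of 20 alternative settings. Over the gene set, 2 of 10 genes passed this test of a difference between lines from Pre to MCE, Prg4 and Lum, where 5.11% of all genes did.

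From MCE to Diff, 6 of the 9 genes other than Prg4 rose in shScram cells (Has1, Has3, Lum, Dcn, Bgn and Fmod), against 20.0% of all genes, and Has2 and Cd44 fell, against 5.22%. In shFto cells Has1, Has3 and Lum rose, against 20.2%, and Has2 and Cd44 fell, against 6.48%. The fall of Cd44 was -0.41 (adjusted p = 0.0432) in shScram and -0.44 (adjusted p = 0.0309) in shFto. Its call held in 9 of 20 settings in shScram and 14 of 20 in shFto, whereas that of Has2 held in all 20 in both. The value of Dcn in shFto cells was 0.92 (adjusted p = 0.105), and its adjusted p was 4.38e-05 without shScram Pre replicate 1. Has1 rose by 2.70 ± 0.15 on the log2 scale in shFto cells (SE, adjusted p = 2.76e-05) and by 0.58 ± 0.15 in shScram cells (SE, adjusted p = 0.0235). The latter did not pass with median-ratio scaling, at 0.47 (adjusted p = 0.0513), or without shScram Diff replicate 1, at 0.48 (adjusted p = 0.128). Fmod rose by 2.02 ± 0.26 in shScram cells (SE, adjusted p = 0.00103), and its value in shFto cells was 0.32 (95% interval -0.28 to 0.91). Of the 9 genes, Has1 passed the test of a difference between lines in this step, where 2.49% of all genes did.

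The fall of Has2 after clonal expansion was alike in size in the lines, at -0.88 ± 0.14 (SE, adjusted p = 0.0024) in shScram and -0.91 ± 0.14 (SE, adjusted p = 0.00179) in shFto. Lum rose further, by 1.99 ± 0.23 (SE, adjusted p = 0.000627) and 1.53 ± 0.23 (SE, adjusted p = 0.00177). The rises of Bgn at 0.48 (adjusted p = 0.0343) and Dcn at 1.30 (adjusted p = 0.0339) in shScram cells did not pass with median-ratio scaling, where they were 0.21 (adjusted p = 0.356) and 1.03 (adjusted p = 0.106). Without shScram Diff replicate 1, of the 8 genes called in shScram cells 3 stayed past the threshold, where 13.8% of all genes were called.

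**Figure D4:**
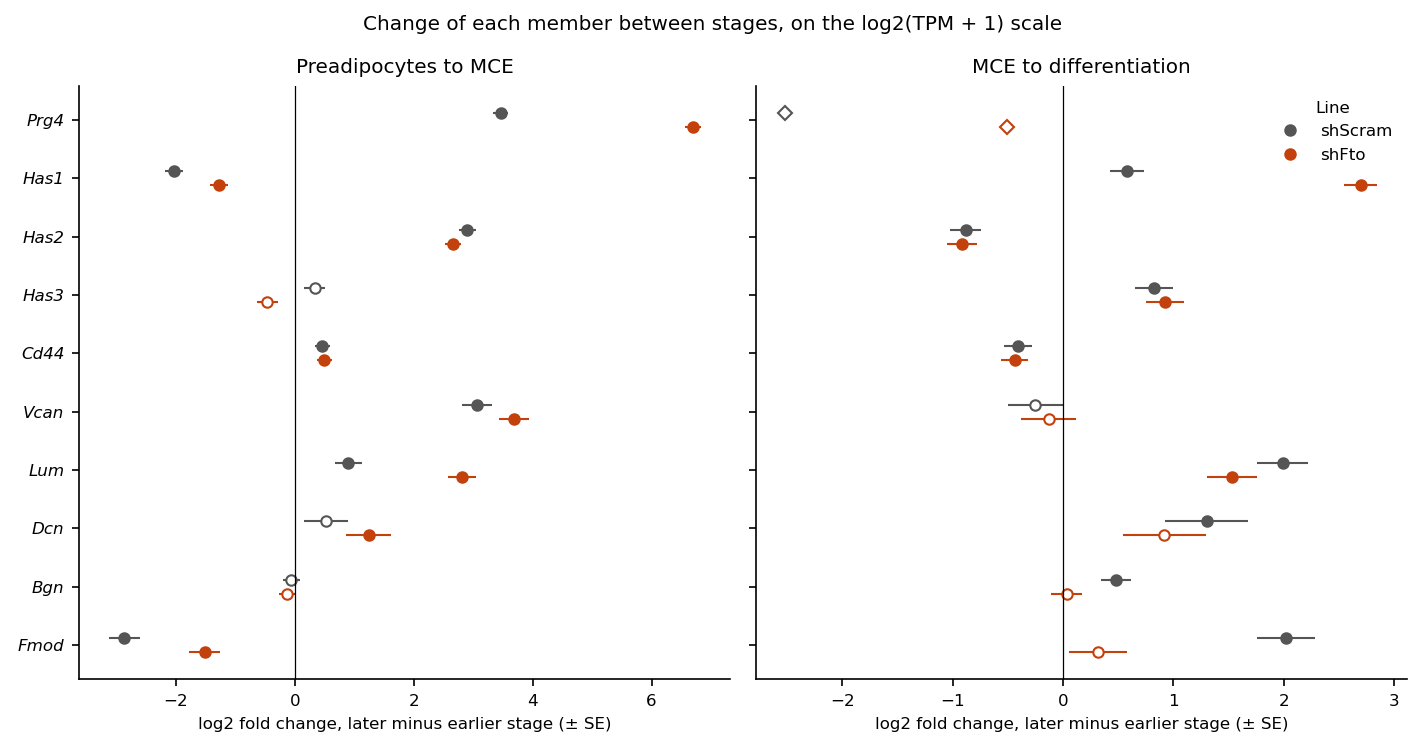
Log2 fold change of each gene from Pre to MCE (left) and from MCE to Diff (right) on the log2(TPM + 1) scale, with bars of 1 SE, grey for shScram and orange for shFto. Filled circles have an adjusted p under 0.05, open circles do not, and diamonds for Prg4 on the right have no test. Vcan and Has2 rise from Pre to MCE in both lines, while Has1 and Fmod fall.

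The order of the levels also shifted between groups, since TPM allows genes to be compared per length. Bgn was first in all 6 groups. In shScram Pre the next genes, Vcan, Dcn and Cd44, overlapped in neighbouring pairs, and Prg4 was last. In shFto MCE and shFto Diff Prg4 came directly after Bgn, Vcan and Dcn and did not overlap its neighbours. At Diff, Vcan was above Dcn in shScram cells, at 938 ± 64.0 against 394 ± 32.0 TPM (SD, n = 2), and below it in shFto cells, at 748 ± 45.2 against 901 ± 9.82 TPM (SD, n = 2). Has1 was last in shScram MCE and shScram Diff, where its libraries overlapped those of Prg4 at the latter stage.

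The sequence before the start site is shown for 3 genes with opposite courses from Pre to MCE, Has1 and Fmod, which fell, and Vcan, which rose. Cd44, which also rose, had a promoter as well and is not printed. These are the 250 bases before the start of the RefSeq transcript (GRCm38.p6), read 5′ to 3′ on the strand of the gene, in lower case. The GENCODE start of Has1 lies inside its window. Capitals mark a match to a motif that was searched on both strands.

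Has1, chr17:17855189-17855438, minus strand: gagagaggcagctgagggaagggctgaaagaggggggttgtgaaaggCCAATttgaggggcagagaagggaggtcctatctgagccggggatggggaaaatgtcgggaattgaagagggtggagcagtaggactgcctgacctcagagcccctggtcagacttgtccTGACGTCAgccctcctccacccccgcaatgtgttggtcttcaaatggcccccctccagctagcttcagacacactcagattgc

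Fmod, chr1:134037004-134037253, plus strand: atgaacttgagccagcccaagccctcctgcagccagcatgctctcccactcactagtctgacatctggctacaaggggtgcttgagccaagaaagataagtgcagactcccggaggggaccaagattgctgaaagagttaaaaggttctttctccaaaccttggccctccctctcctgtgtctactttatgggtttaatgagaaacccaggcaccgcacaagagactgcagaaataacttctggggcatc

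Vcan, chr13:89742513-89742762, minus strand: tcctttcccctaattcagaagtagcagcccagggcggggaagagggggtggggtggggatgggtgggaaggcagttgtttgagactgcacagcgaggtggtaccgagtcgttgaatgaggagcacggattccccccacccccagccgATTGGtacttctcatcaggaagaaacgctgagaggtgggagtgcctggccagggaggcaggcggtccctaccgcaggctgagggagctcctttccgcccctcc

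The capitals in Has1 are a CCAAT box whose first base is at -203 and, at -83, the 8 bases TGACGTCA of the full cyclic AMP response element, counting the base before the start as -1. The 8-base motif occurs in 1.55% of 32851 RefSeq promoters of the same length. It contains the shorter TGACG on both strands, which occurs in 17.8%, and it was added to the search after the sequences had been seen. In Vcan the capitals are a CCAAT box on the reverse strand, at -103, a motif that 33.8% of promoters hold. Fmod held none of the motifs searched, which also included the TATA box TATAAA (12.4%), the AP-1 site TGANTCA (6.75%) and TGTTCT, one side of a glucocorticoid response element (16.1%). A promoter was found in the table for 5 of the 10 genes, the others with one being Cd44, with no match, and Bgn, with TGTTCT at -241. A match is a run of letters and was not tested as a site.

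Other genes of hyaluronan turnover and binding split in direction. Of 17 genes tested, 5 were higher and 4 lower at Pre, 5 higher and 2 lower at MCE, and 6 higher and 3 lower at Diff, with median log2 fold changes of 0.31, 0.17 and 0.12. Of all genes tested, 15.9% were higher and 12.3% lower at Pre, 10.5% and 7.26% at MCE, and 11.9% and 9.31% at Diff. Tnfaip6, which links heavy chains to hyaluronan, was higher in shFto cells at each stage, and at MCE it was 18.1 and 18.8 TPM against 8.18 and 9.41 TPM (log2 fold change 0.99 ± 0.18, SE, adjusted p = 0.00563). Cemip2, a membrane relative of the hyaluronan-degrading protein Cemip, was 37.5 and 37.4 TPM against 14.6 and 12.1 TPM at MCE (1.43 ± 0.16, SE, adjusted p = 0.000393). Layn, a membrane receptor for hyaluronan, was lower at Pre and MCE, with 53.3 and 48.5 TPM against 75.8 and 77.7 TPM at the latter (-0.58 ± 0.14, SE, adjusted p = 0.0176). At Diff Layn was the higher one, at 110.4 and 110.1 TPM against 70.4 and 66.9 TPM (0.68 ± 0.14, SE, adjusted p = 0.00776). Hmmr, an intracellular and surface hyaluronan-binding protein that rises in dividing cells, was lower at Pre (-0.81, adjusted p = 0.0208) and higher at Diff, at 15.5 and 16.8 TPM against 6.36 and 8.36 TPM (1.04 ± 0.20, SE, adjusted p = 0.00663).

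The remaining small leucine-rich proteoglycans gave 3 higher and 0 lower of 9 at Pre, 0 higher and 1 lower at MCE, and 1 higher and 4 lower at Diff, beside 15.9% and 12.3%, 10.5% and 7.26%, and 11.9% and 9.31% of all genes. The count of 0 lower at Pre became 1 without shScram Pre replicate 1, and the count of 0 higher at MCE also became 1. Prelp, a basement membrane anchor of collagen, was 105 and 112 TPM in shFto Pre against 19.4 and 22.3 TPM in shScram Pre (log2 fold change 2.33 ± 0.18, SE, adjusted p = 0.000101). At MCE it was the lower one, at 4.91 and 3.08 TPM against 11.9 and 10.3 TPM (-1.30 ± 0.18, SE, adjusted p = 0.00128). Aspn, asporin, was 166 and 170 TPM in shFto Diff against 645 and 708 TPM in shScram Diff (-2.0 ± 0.40, SE, adjusted p = 0.00798). Ogn, osteoglycin, was 61.6 and 64.7 TPM against 213 and 248 TPM there (-1.85 ± 0.41, SE, adjusted p = 0.0134). Tsku, a secreted member of the family, was higher at Pre (1.49 ± 0.40, SE, adjusted p = 0.026), but its shScram Pre libraries were at 6.26 and 21.1 TPM.

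Of 13 other proteoglycan core proteins, 5 were higher and 2 lower at Pre, 4 higher and 2 lower at MCE, and 1 higher and 3 lower at Diff. The shares of all genes were 15.9% and 12.3% at Pre, 10.5% and 7.26% at MCE, and 11.9% and 9.31% at Diff. Without shScram Pre replicate 1 the counts higher were 5, 7 and 5, and 16.1%, 25.2% and 25.3% of all genes were then higher. Sdc3, a transmembrane heparan sulphate proteoglycan, was higher at each stage, and in shFto Diff it was 59.2 and 63.6 TPM against 15.8 and 16.5 TPM (log2 fold change 1.86 ± 0.44, SE, adjusted p = 0.0165). Gpc1, a lipid-anchored heparan sulphate proteoglycan, was 81.4 and 80.2 TPM against 19.9 and 19.6 TPM at MCE (1.98 ± 0.45, SE, adjusted p = 0.0158). Tgfbr3, betaglycan, a co-receptor of the TGF-β family, was lower at each stage, and at MCE it was 100 and 88.2 TPM against 297 and 254 TPM (-1.54 ± 0.12, SE, adjusted p = 7.54e-05).

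Enzymes that build glycosaminoglycan chains were called in both directions. Of 32 tested, 13 were higher and 2 lower at Pre, beside 15.9% and 12.3% of all genes, 8 higher and 2 lower at MCE, beside 10.5% and 7.26%, and 7 higher and 5 lower at Diff, beside 11.9% and 9.31%. The counts higher without shScram Pre replicate 1 were 16, 20 and 15, beside 16.1%, 25.2% and 25.3% of all genes. Median log2 fold changes were 0.71, 0.40 and 0.28. Papss2, which makes the sulphate donor, was 27.6 and 25.2 TPM in shFto Diff against 2.94 and 3.28 TPM in shScram Diff (2.74 ± 0.15, SE, adjusted p = 5.88e-06). Csgalnact1, which starts chondroitin chains, was 58.4 and 59.6 TPM against 13.4 and 14.7 TPM at MCE (1.99 ± 0.13, SE, adjusted p = 2.7e-05). Glce and Ext1, which act on heparan sulphate as epimerase and polymerase, were lower at Diff, at -0.97 ± 0.13 (SE, adjusted p = 0.000912) and -0.91 ± 0.13 (SE, adjusted p = 0.00143). Hs6st1, a heparan sulphate sulphotransferase, was higher at Pre, 109 and 110 TPM against 10.96 and 26.1 TPM (2.62 ± 0.30, SE, adjusted p = 0.000791). B3gat3, which completes the linker of both kinds of chain, was 88.0 and 91.2 TPM against 15.1 and 47.8 TPM at Pre, again with the control libraries far apart (1.69 ± 0.40, SE, adjusted p = 0.0167).

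Enzymes that cut proteoglycans gave 4 higher and 0 lower of 9 at Pre, 3 higher and 2 lower at MCE, and 3 higher and 0 lower at Diff. All genes tested gave 15.9% and 12.3%, 10.5% and 7.26%, and 11.9% and 9.31% at these stages. Without shScram Pre replicate 1 the counts higher were 6, 5 and 5, against 16.1%, 25.2% and 25.3% of all genes, and 1 gene was lower at Diff. Adamts5, a versican- and aggrecan-cleaving protease, was higher at each stage, and in shFto Diff it was 66.1 and 68.4 TPM against 7.13 and 7.62 TPM (log2 fold change 3.03 ± 0.17, SE, adjusted p = 7.84e-06). Adamts4, a related protease, was 13.7 and 13.3 TPM against 6.49 and 6.497 TPM at MCE (0.95 ± 0.24, SE, adjusted p = 0.0276). Adamts15 was lower at MCE, at 1.75 and 1.40 TPM against 8.14 and 8.06 TPM (-1.82 ± 0.14, SE, adjusted p = 7.16e-05). Adamts1, which also cleaves versican, was lower at MCE (-0.49, adjusted p = 0.0342) and higher at Diff, at 992 and 1042 TPM against 685 and 691 TPM (0.56 ± 0.13, SE, adjusted p = 0.0171). No set test was run on these lists, and nothing particular to any of them is drawn from the counts.

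**Figure D5:**
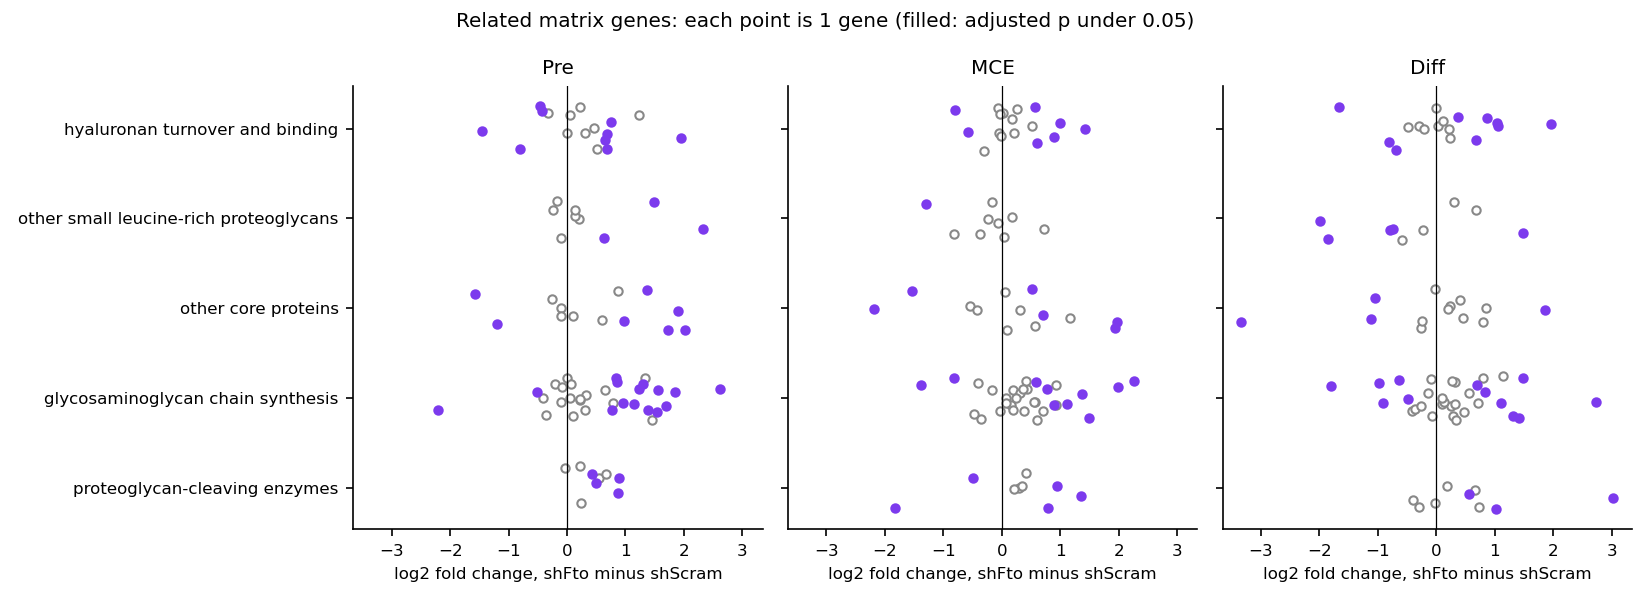
Log2 fold change, shFto minus shScram on the log2(TPM + 1) scale, for each tested gene of 5 related gene lists at Pre, MCE and Diff, with points spread vertically within a list to separate them. Filled points have an adjusted p under 0.05. At Diff the point farthest right is Adamts5, at 3.03, and at Pre 13 of the 32 chain synthesis genes are filled on the right of 0.

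The genes whose pattern was most like that of Prg4 were named by Pearson's correlation of log2(TPM + 1) over the 12 libraries. These were Rasl11a (0.985), a small GTPase of the Ras family, Gfpt2 (0.984), an isozyme of the rate-limiting step of hexosamine synthesis, the phosphodiesterases Pde10a (0.981) and Pde1a (0.975), and Gm22068 (0.975), listed by its gene symbol alone. The points of each correlation share libraries and groups, so no p is given. Rasl11a was 9.36 and 9.11 TPM in shScram MCE, 38.7 and 39.0 TPM in shFto MCE and 42.3 and 41.0 TPM in shFto Diff. Gfpt2 was 3.11 and 3.28 TPM in shScram MCE and 10.3 and 11.5 TPM in shFto MCE. Pde10a was 3.12 and 4.31 TPM in shScram MCE and 29.5 and 29.8 TPM in shFto MCE. Each of these was low at Pre in both lines, below 3 TPM, whereas Pde1a was at 28.3 TPM or more in every library and reached 172 and 174 TPM in shFto MCE. Gm22068 was 2.05 and 1.76 TPM in shScram MCE and 5.42 and 6.57 TPM in shFto MCE.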

How the data were processed

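RNA-seq libraries of shScram and shFto 3T3-L1 cells at Pre, MCE and Diff were analysed, grouped by title. Rhein-treated and immunoprecipitated samples were not analysed here. A treatment protocol, which the labels attach to these samples, mentions rhein, whereas their titles and treatment entries do not. Per the submitters' processing notes, the authors used Trim Galore 0.6.5 for trimming, HISAT2 2.1.0 for alignment to GRCm38, StringTie 2.1.4 with Ensembl release 102, and DESeq2 1.30.1. The deposited values are TPM per gene. Sequencing depth cannot be read from TPM, and precision is limited by the 2 libraries in a group. Between 20853 and 24018 genes had a value above 0 in a library. The strand setting of the counting is not given in the sources used here.

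Genes that reached 1 TPM in 2 or more of the 12 libraries were tested on log2(TPM + 1) with limma 3.58.1 in R 4.3.3, with a mean per group, a trend in the spread, 6 residual degrees of freedom, two-sided tests and Benjamini-Hochberg adjustment over all genes tested. Fold changes on this scale understate those of genes near 1 TPM. Intervals are 95% intervals of single genes. The difference between 2 knockdown effects was tested as an interaction. The script was tested on simulated data. The alternatives were a pseudocount of 0.1, no filter, a filter of 5 TPM, median-ratio scaling, quantile normalization, a fit of the libraries of each comparison alone, no trend, a replicate block and leaving out each library.

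Besides the 10 genes, Fto, genes that overlap a member in GENCODE M21 (GRCm38), the 5 genes most correlated with Prg4 and, from each related list, up to 2 called genes per direction with the highest and lowest fold change and a mean of at least 5 TPM were named for each comparison of the lines. The 5 related lists held 30, 14, 31, 46 and 13 symbols, in the order of the text, and 17, 9, 13, 32 and 9 of them were tested. The members, lists and tests were chosen with earlier results of these data known. Promoters came from RefSeq (GRCm38.p6), without the 50 bases after the start. Correlations of replicate deviations between groups were -0.29 to 0.17, so replicate numbers were not taken to pair libraries.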

Additional observations from a re-analysis of the deposited data

Results flagged for a closer look

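The effect of the knockdown differed between stages by the interaction test for 3 genes. For Prg4 the effect at MCE minus that at Pre was 3.23 on the log2 scale (limma, adjusted p = 0.000182), and it passed under all 20 alternative settings, with values from 1.88 to 3.30. The lowest came with a pseudocount of 0.1. For Lum the same difference was 1.91 (adjusted p = 0.0141), with values from 1.60 to 2.42, and it passed under 15 of 20 settings. The adjusted p reached 0.0814, and Lum was below 1 TPM in every Pre library. For Has1 the effect at Diff minus that at MCE was 2.11 (adjusted p = 0.00246), with values from 2.01 to 2.82, and it passed under all 20 settings. The cause of these differences was not tested.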

How the results depend on the processing

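Values of the 10 genes were recomputed under 20 settings, 12 of them leaving out 1 library. Of 1791 values, 1591 kept their direction and side of the threshold or stayed within the spread, 134 lost the call and 29 gained it. Another 29 changed sign, and 0 of these were called by limma in the reported fit. The remaining 8, which involve Prg4 at Diff, moved by more than the spread, such as 6.18 to 6.93 and -2.51 to -3.16 with a pseudocount of 0.1. Causes were not tested. Fitting only the libraries of a comparison called 0 genes of any kind at Pre, so 0 of the 10 there against 7, and 4510 of all genes at an adjusted p under 0.05 became 0, against 7098 with an unadjusted p under 0.05 in the reported fit. It called 1 for MCE minus Pre (2 reported) and 2 for Diff minus MCE (1 reported). Without the filter, 4 were called at MCE (7 reported) and 5 for shScram from MCE to Diff (8 reported), which became 5 with median-ratio scaling and 4 with quantile normalization. For Diff minus MCE, median-ratio scaling, quantile normalization and no trend each called 2. A pseudocount of 0.1 called 1 for MCE minus Pre. Counts over all genes also moved between settings, as given below, so nothing particular to the 10 genes is read from these counts.

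Leaving out 1 library gave 4 to 8 calls at Pre (fewest without shFto Pre replicate 1), 3 to 8 at MCE (fewest without shScram MCE replicate 1 or either shFto MCE library), 4 to 7 at Diff, 3 to 8 for shScram from MCE to Diff (fewest without shScram MCE replicate 2 or shScram Diff replicate 1), 1 to 6 for MCE minus Pre (most without shScram Pre replicate 2) and 1 to 3 for Diff minus MCE (most without either shScram Pre library). The counts over all genes moved more: over all settings they were 1215 to 6548 at MCE (2838 reported), 1639 to 7290 at Diff (3391), 504 to 10338 for shScram from Pre to MCE (6236), 1605 to 8309 for shScram from MCE to Diff (4023), 2548 to 8164 (4585) and 2013 to 8684 (4256) for the same steps in shFto, 239 to 8378 for MCE minus Pre (816) and 125 to 2730 for Diff minus MCE (397). At Pre the highest count was 10025. The highest counts came from leaving out a shScram Pre library, except for shFto from MCE to Diff.

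With the replicate block the calls of Bgn at MCE (adjusted p = 0.0629), Has3 at Diff (0.0616) and, for shScram from MCE to Diff, Cd44 (0.0558) and Bgn (0.0562) were lost, and the genes called for Diff minus MCE fell from 397 to 257. The replicate block changed no other call of the 10 genes.

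The sign changes were of uncalled log2 values, the largest as reported being Dcn at 0.53 in shScram from Pre to MCE and 0.71 for MCE minus Pre. With quantile normalization Has1 at MCE was 0.031, Fmod in shFto from MCE to Diff was -0.23, Bgn for MCE minus Pre was 0.13, and Has2 and Has3 for Diff minus MCE were 0.19 and -0.0078. With median-ratio scaling Bgn was 0.17 in shScram and 0.12 in shFto from Pre to MCE and -0.18 in shFto from MCE to Diff, and Has2 and Cd44 for Diff minus MCE were 0.014 and 0.029. With a pseudocount of 0.1 Has2 was 0.010 there. Leaving out 1 library gave -0.37 to 0.24 for Lum at Pre, -0.21 to 1.27 for Dcn and -0.17 to 0.052 for Bgn in shScram from Pre to MCE, and -0.0032 to 0.071 for Bgn in shFto from MCE to Diff. For MCE minus Pre it gave -0.087 to 0.16 for Cd44, -0.028 to 1.46 for Dcn and -0.17 to 0.045 for Bgn. For Diff minus MCE it gave -0.13 to 0.071 for Has2, -0.11 to 0.31 for Has3, -0.11 to 0.049 for Cd44 and -0.049 to 0.29 for Vcan.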
